A study of Mus musculus with 12 samples.

Results

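Lipid droplet genes were followed through 12 liver pools, 10 genes out of 11791 measured: the coat proteins Plin2, Plin3, Plin4 and Plin5, the droplet-fusing proteins Cideb and Cidec, the lipases Pnpla2 and Mgll, and the lipase regulators G0s2 and Abhd5. They were taken by gene name, and all 10 were present in the table. The livers came from male C57BL/6 mice aged 10 weeks that were kept for 3 weeks on an MCD diet (lacking methionine and choline), which produces a fatty, inflamed liver. All mice carried Lyzs-Cre, a recombinase driven by the lysozyme locus and active in myeloid cells. The control group had only Lyzs-Cre. The KO group also lacked p38γ and p38δ, 2 stress-activated kinases, and the anti-Ly6G group was given an antibody to Ly6G, a neutrophil surface protein (its titles read GR1). Each group had 4 pools, each of RNA from 2 animals in equal parts. The deletion was thus made in myeloid cells, whereas the RNA came from whole liver. The sources name 12 males per genotype, more than 4 pools of 2 hold.

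Beside the groups runs a label for the origin of the mitochondria, described through conplastic strains, which pair the nuclear genome of one strain with the mitochondrial DNA of another. The control group was C57 throughout and the anti-Ly6G group NZB throughout, while the KO group was split, with pools 1 and 2 labelled C57 and the other pair, 3 and 4, labelled NZB. For anti-Ly6G against control, antibody and mitochondrial label therefore cannot be told apart within those 8 pools. Only the KO pools hold both labels. All 12 samples carry the same C57BL/6 strain label, and no source used here says how conplastic mice enter this design. The label may therefore not describe these mice, and every value below that uses it carries that doubt.

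Levels are in RPM, reads scaled to TMM-adjusted sizes of the libraries. Errors are SD over n = 4 pools. Depth was 13.1 to 22.3 M reads a pool. Changes are on the log2(RPM + 0.5) scale from limma, with p-values adjusted by Benjamini-Hochberg over all 11791 genes and called at 0.05. If the pools hold separate animals, those p-values set a group difference against the spread between pools. That spread was estimated over all groups in 1 fit and draws in part on the other genes. The liver label fitted the markers: 9 of 10 hepatocyte genes were measured, with summed levels of 107681 to 151637 RPM. Mapk12, which encodes p38γ, was at 2.17 ± 0.397 RPM in control and 2.30 ± 0.694 in KO livers, and Mapk13 was not analysed here.

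Hepatocytes store triglyceride in lipid droplets, which perilipins coat and CIDE proteins enlarge by fusion. Triglyceride is broken down in steps. ATGL, the product of Pnpla2, removes the first fatty acid, and monoacylglycerol lipase, the product of Mgll, removes the last. The ABHD5 protein (CGI-58) activates ATGL and the G0S2 protein inhibits it. PLIN2 is the main coat protein of liver droplets and is degraded when it is not bound to lipid. PLIN5 tethers droplets to mitochondria. PPARα, the fatty acid sensor of the liver, raises the transcription of several of these genes.

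The promoters of Plin2, Mgll, Cidec and Pnpla2 are shown because these genes had the pools of the anti-Ly6G group wholly above or below those of the control group, as did Plin3. Each is the 250 bases before the RefSeq start (build GRCm38.p6), written 5′ to 3′ on the gene's strand. Capitals mark CACGTG, the E-box read by basic helix-loop-helix factors such as USF, MLX and TFEB, and AGGTCA on either strand, the half-site of nuclear receptors such as PPARα.
Plin2, chr4:86670060-86670309, minus strand: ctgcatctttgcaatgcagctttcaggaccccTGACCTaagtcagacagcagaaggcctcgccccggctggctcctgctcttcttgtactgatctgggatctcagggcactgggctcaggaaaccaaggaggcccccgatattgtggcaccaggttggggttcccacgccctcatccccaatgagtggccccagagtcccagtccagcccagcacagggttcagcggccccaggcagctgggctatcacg
Mgll, chr6:88724162-88724411, plus strand: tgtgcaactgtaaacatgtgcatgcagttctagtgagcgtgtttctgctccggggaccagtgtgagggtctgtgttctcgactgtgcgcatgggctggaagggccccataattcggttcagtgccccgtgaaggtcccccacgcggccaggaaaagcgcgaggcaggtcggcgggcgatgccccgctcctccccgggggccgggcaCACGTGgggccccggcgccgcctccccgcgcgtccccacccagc
Cidec, chr6:113435761-113436010, minus strand: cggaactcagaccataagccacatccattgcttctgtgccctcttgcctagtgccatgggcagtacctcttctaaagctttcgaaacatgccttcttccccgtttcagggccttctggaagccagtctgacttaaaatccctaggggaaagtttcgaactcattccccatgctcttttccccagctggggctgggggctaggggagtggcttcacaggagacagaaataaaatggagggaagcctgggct
Pnpla2, chr7:141454938-141455187, plus strand: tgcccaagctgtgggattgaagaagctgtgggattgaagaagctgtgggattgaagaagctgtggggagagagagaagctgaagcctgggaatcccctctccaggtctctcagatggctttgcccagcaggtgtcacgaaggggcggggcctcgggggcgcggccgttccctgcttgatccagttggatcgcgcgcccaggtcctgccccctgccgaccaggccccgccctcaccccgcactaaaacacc
The E-box of Plin2 lies across the start itself and is seen in the 18 bases around it.
Plin2 start, chr4:86670052-86670069, minus strand: ggctatCACGTGgctcgg

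In windows of 300 bases, 250 before and 50 after the start, CACGTG stood in Plin2 and in Mgll, where its first base is 44 bases before the start. It stood in 7.15% of 32851 RefSeq windows. AGGTCA stood in Plin2 (218 bases before the start, reverse strand), Plin5 (170 bases) and Abhd5 (69 bases, reverse strand), against 16.3% of windows. The element DR1, that half-site repeated with 1 base between, was searched on both strands, with only exact matches counted. It was in none of the 10 windows and in 0.0396% of all, so its absence from so few windows says little. These matches describe letters and not bound sites. The upstream bases of Mgll also overlap an exon of the antisense gene Gm26588.

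Among the coat proteins, Plin2 and Plin3 rose with anti-Ly6G, and no coat gene passed the test in the KO livers. In the control pools, numbered 1 to 4, Plin2 (4:86648386-86670060, minus strand, ENSMUSG00000028494) stood at 1206, 1374, 1382 and 1527 RPM. The KO pools had 1561, 1399, 1884 and 1634 RPM, and the anti-Ly6G pools 1735, 1864, 1953 and 2049. All anti-Ly6G pools lay above all control pools, while the KO pools overlapped both groups. The means were 1372 ± 131, 1619 ± 202 and 1900 ± 134 RPM. The log2 change with anti-Ly6G was 0.47 (SE 0.10, adjusted p = 0.00462), a 1.39-fold rise, and in KO it was 0.24 (95% interval 0.01 to 0.46, adjusted p = 0.245). Between KO and anti-Ly6G the difference was -0.24 (adjusted p = 0.108). Averaged over the 12 pools, Plin2 ranked 71 of 11791 genes.

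Plin3 encodes a perilipin that moves from the cytosol onto young droplets. Its control pools had 34.9, 35.0, 33.3 and 44.6 RPM. The KO pools had 49.4, 59.3, 48.6 and 43.5 RPM, and the anti-Ly6G pools 45.1, 57.4, 51.3 and 58.6. Control pool 4 sat well above the other control pools and alone made the KO and control groups overlap, since only KO pool 4 was lower. With anti-Ly6G the gene rose by 0.52 (SE 0.12, adjusted p = 0.00483). In KO the estimate was 0.44 (SE 0.12, adjusted p = 0.0757), which missed the threshold. Without control pool 4 it was 0.53 (adjusted p = 0.0301), and DESeq2 on recovered reads gave 0.45 (adjusted p = 0.0185). These are among the 3 of 26 alternatives that called it, and the adjusted p ran up to 0.186. Calls over all genes also rose there from 132, to 319 without control pool 4 and 577 with DESeq2. The difference between KO and anti-Ly6G was -0.08 (95% interval -0.33 to 0.17).

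Plin4 and Plin5 lie next to each other on chromosome 17, 1797 bases apart with no coding gene between. Plin3 is on the same strand, a further 159879 bases away. Plin4, which encodes a perilipin with long amphipathic repeats, had 27.4, 37.8, 47.5 and 53.8 RPM in control, 30.3, 50.01, 22.6 and 27.0 in KO, and 36.0, 62.4, 35.3 and 61.8 with anti-Ly6G. Its pools varied widely within each group, and the groups overlapped. The changes against control were -0.37 in KO (adjusted p = 0.473) and 0.22 with anti-Ly6G (adjusted p = 0.558), and KO against anti-Ly6G gave -0.59 (adjusted p = 0.114). Plin5 was the steadiest perilipin in means, at 148 ± 17.6, 149 ± 15.3 and 141 ± 20.1 RPM. The log2 changes of Plin5 were 0.00 (95% interval -0.24 to 0.25) in KO and -0.08 (-0.33 to 0.17) with anti-Ly6G, with every comparison short of the threshold.

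**Figure D1:**
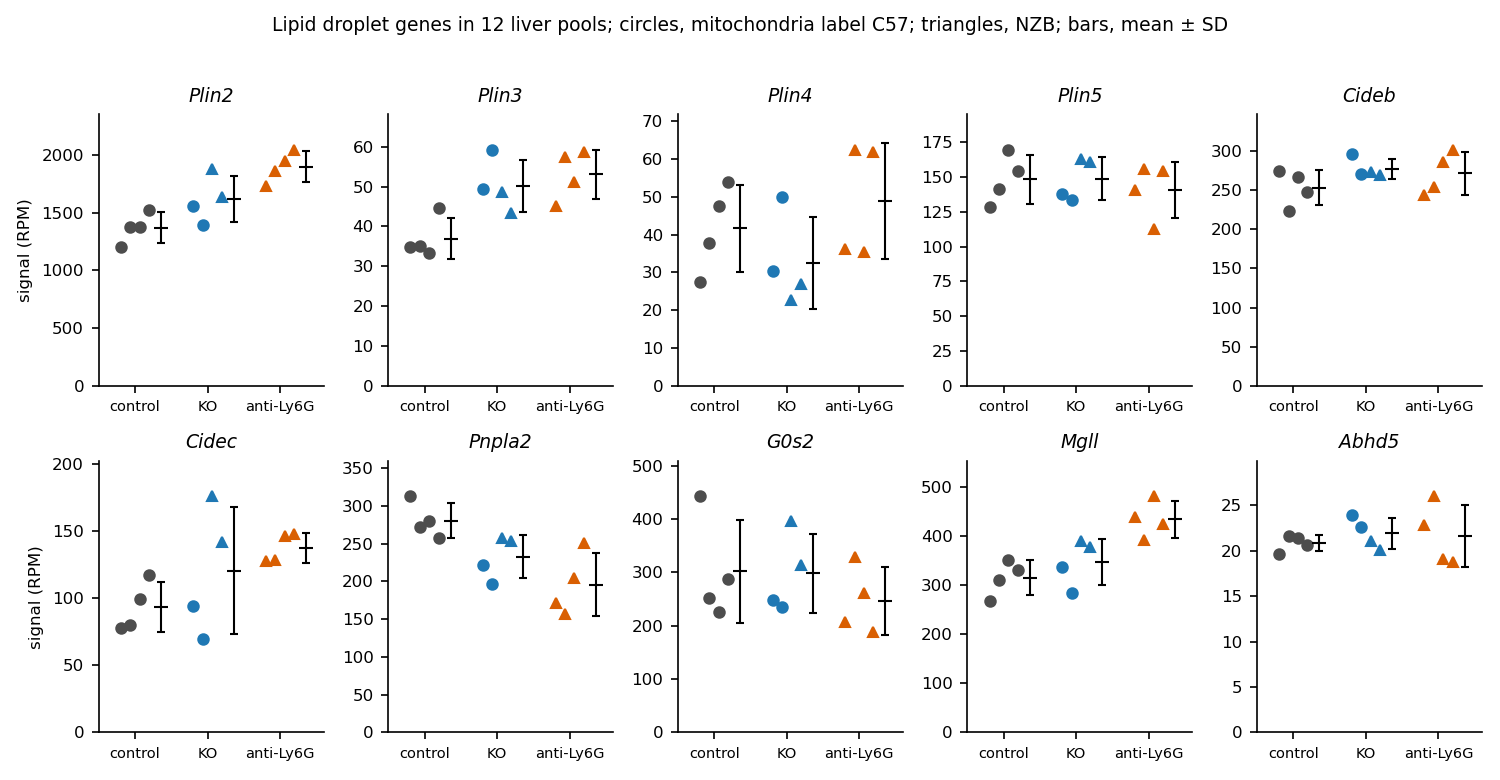
Signal in RPM (y axis, from 0) of the 10 genes in each of the 12 pools, by group (x axis); circles have the mitochondria label C57 and triangles NZB, and bars are mean ± SD over 4 pools. Plin2 and Mgll lie higher, and Pnpla2 lower, in all 4 anti-Ly6G pools than in any control pool, while Plin5, Cideb and Abhd5 overlap.

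The CIDE genes differed in spread. Cideb, which also serves the lipidation of VLDL, had a narrow range, with 253 ± 22.5 RPM in control, 277 ± 12.9 in KO and 271 ± 27.1 with anti-Ly6G. None of its 3 comparisons was called, and the changes against control were 0.14 in KO (adjusted p = 0.405) and 0.10 with anti-Ly6G (adjusted p = 0.391). Of its 1488 exon bases, 1136 (76.3%) are shared with Nop9 on the opposite strand, itself at 19.9 to 21.1 RPM in group means. The use of strand in counting is not given in the sources used here, so reads of the 2 genes may be mixed.

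Cidec, which encodes FSP27, a protein that builds large droplets, had 77.7, 79.8, 99.7 and 117 RPM in control. The KO pools had 94.4, 69.8, 176 and 142 RPM, and the anti-Ly6G pools 127, 128, 146 and 148. Every anti-Ly6G pool lay above every control pool, but the log2 change of 0.57 (SE 0.23, 95% interval 0.08 to 1.05) had an adjusted p of 0.0717 and was not called. The KO group held both the lowest and the highest pool of all 12. Its 2 C57 pools averaged 82.1 RPM and its 2 NZB pools 159 RPM, a log2 difference of 0.95 (adjusted p = 0.131), the largest in size that the label gave among the 10 genes.

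Of the lipases, Mgll rose and Pnpla2 fell with anti-Ly6G. Pnpla2 (7:141455198-141460743, plus strand, ENSMUSG00000025509) had 313, 271, 280 and 258 RPM in control. The KO pools had 222, 197, 258 and 253 RPM, and the anti-Ly6G pools 171, 156, 205 and 250.5. Both groups lay wholly below control, although KO pool 3 came within 1 RPM of control pool 4. The log2 change with anti-Ly6G was -0.54 (SE 0.13, adjusted p = 0.00834). In KO it was -0.28 (95% interval -0.56 to 0.01, adjusted p = 0.280) and was not called. The means were 281 ± 23.3, 232 ± 28.5 and 196 ± 41.8 RPM, and the mean of the anti-Ly6G livers fell by 30.2% against control.

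Mgll (6:88724412-88828360, plus strand, ENSMUSG00000033174) had 267, 311, 351 and 332 RPM in control. Values were 337, 285, 390 and 378 RPM in the KO pools, and 439, 391, 481 and 425 with anti-Ly6G. The anti-Ly6G pools were above every pool of both other groups. Mgll rose by 0.46 against control (SE 0.11, adjusted p = 0.00668). It was also the single gene of the 10 called between KO and anti-Ly6G, lower in KO with a change of -0.33 (SE 0.11, adjusted p = 0.0415). That call was kept in 15 of 26 alternatives. The antisense gene Gm26588, which shares 167 exon bases (3.29%) with Mgll, was at 4.28 ± 0.466 RPM in control and 6.91 ± 0.867 with anti-Ly6G (log2 change 0.63, adjusted p = 0.00147).

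The regulators of ATGL did not pass the test in any comparison. Abhd5, at 19.7, 21.6, 21.4 and 20.7 RPM in control, had 23.95, 22.6, 21.1 and 20.1 in KO and 22.8, 26.0, 19.1 and 18.8 with anti-Ly6G. Its changes were 0.07 (95% interval -0.15 to 0.29) and 0.04 (-0.17 to 0.26). Part of its exons, 950 bases, lies opposite A730085K08Rik, which was not among the measured genes. G0s2 had 443, 253, 227 and 287 RPM in control, 247, 236, 396 and 313 in KO and 207, 329, 262 and 189 with anti-Ly6G. One high control pool and wide spread left its interval at -0.76 to 0.20 for anti-Ly6G, around a change of -0.28 (adjusted p = 0.362).

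In all, 4 of the 10 genes were called for anti-Ly6G against control, where 30.4% of all 11791 genes were called (15.1% higher and 15.3% lower). For KO against control it was 0 of 10 by limma, with a background of 1.12% (0.585% higher and 0.534% lower). In that comparison 2 of the genes had an unadjusted p under 0.05. The share of all genes under that cut was not counted, so nothing is read from it. On recovered reads, edgeR called none of the 10 and 153 genes in all, and DESeq2 1 of the 10 and 577 in all. Between KO and anti-Ly6G limma called 1 of 10, with 26.8% of all genes called, and 13.1% called lower. The share called among the 10 is thus close to that of the whole table in the anti-Ly6G comparison, and nothing particular to droplet genes is read from it. Pools did not overlap in 5 of 10 genes for anti-Ly6G against control, against 27.3% of all genes, and in 1 for KO against control, against 12.4%. The median log2 change of the 10 was 0.10 in KO and 0.16 with anti-Ly6G, beside -0.00 over all genes in both. Both comparisons use the same control pools.

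**Figure D2:**
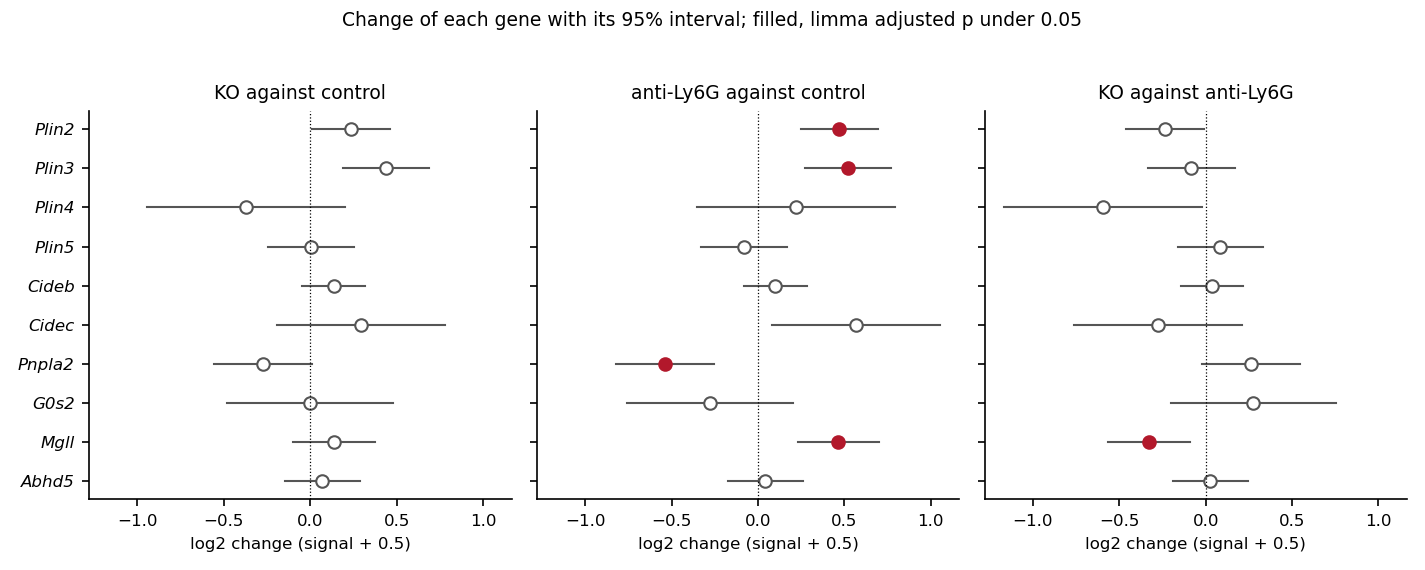
Log2 change of RPM + 0.5 (x axis) of each gene in the 3 comparisons, with 95% intervals from limma; filled points have an adjusted p under 0.05. Plin2, Plin3, Mgll and Pnpla2 are filled for anti-Ly6G against control, none for KO against control, and Mgll between KO and anti-Ly6G.

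The values were also read by the mitochondria label. Within KO, both NZB pools lay above both C57 pools for 6 of the 10 genes (Plin2, Plin5, Cidec, Pnpla2, G0s2 and Mgll) and below them for 3 (Plin3, Plin4 and Abhd5). Over all genes, 53.9% were apart in this way, with 2 pools on each side. None of these differences was called, nor was any of the 11791 genes (0%). With the label as a covariate, which rests on the KO pools, the anti-Ly6G change of Plin2 became 0.22 (adjusted p = 0.398) and that of Mgll 0.16 (adjusted p = 0.573). Cidec turned to -0.39 (adjusted p = 0.316). The label went the other way for Plin3 and Pnpla2, whose changes became larger, 0.75 (adjusted p = 0.0321) and -0.83 (adjusted p = 0.0340), and stayed called, 2 of the 10 in all beside 8.25% of all genes. Among NZB pools alone, 2 of KO and 4 of anti-Ly6G, Mgll differed between KO and anti-Ly6G by -0.17 (adjusted p = 0.303), and Plin4 by -0.92 (adjusted p = 0.0443). Plin4 was the only 1 of the 10 called there, beside 1554 of all 11791 genes. It was called in 3 of 26 alternatives for KO against anti-Ly6G. The C57 pools of KO against control gave Plin3 0.55 (adjusted p = 0.0946) and Pnpla2 -0.42 (adjusted p = 0.0810).

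Levels per kilobase of exon gave the order of the genes in control livers. The exon length joined all annotated transcripts of a gene, which may exceed that of the transcript in liver, so the order is approximate. Plin2 led with 391 RPM per kb, followed by G0s2 with 347, Cideb with 170, Pnpla2 with 92.9, Plin5 with 71.2, Mgll with 62.1 and Cidec with 50.4. Plin3 (9.76), Plin4 (7.20) and Abhd5 (3.50) were far lower. In that order the pools of Plin2 and G0s2 overlapped, as did Plin5 with Mgll, Mgll with Cidec, and Plin3 with Plin4. With anti-Ly6G, Plin2 at 541 RPM per kb stood clear of G0s2 at 283. Pnpla2 moved from the fourth to the seventh place, at 64.8 RPM per kb, behind Mgll (85.5), Cidec (74.0) and Plin5 (67.5), and the pools of neighbours among these 4 overlapped.

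Ratios within a pool set coat and lipase side by side, as a description. Plin2 to Pnpla2 was 3.86 to 5.92 in control, 6.45 to 7.31 in KO and 8.18 to 11.9 with anti-Ly6G, with no overlap between any of the groups. Mgll to Pnpla2 ran in the same order, at 0.855 to 1.29, 1.45 to 1.52 and 1.69 to 2.56. For anti-Ly6G against control, the pools of Plin2, Mgll and Pnpla2 were already apart, Plin2 and Mgll higher and Pnpla2 lower. Both ratios were therefore bound to separate these groups and add no support. How often ratios of other genes separate so was not tested. In KO the NZB pools were the higher ones for Plin2, Mgll and Pnpla2 alike, and the Mgll ratio varied little, at 1.49 ± 0.0324. Abhd5 to Pnpla2 was 0.0748 ± 0.0081 in control, 0.0960 ± 0.0181 in KO and 0.117 ± 0.0410 with anti-Ly6G, with overlap. G0s2 to Pnpla2, an inhibitor to its target, also overlapped, at 1.07 ± 0.264, 1.27 ± 0.184 and 1.34 ± 0.565.

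**Figure D3:**
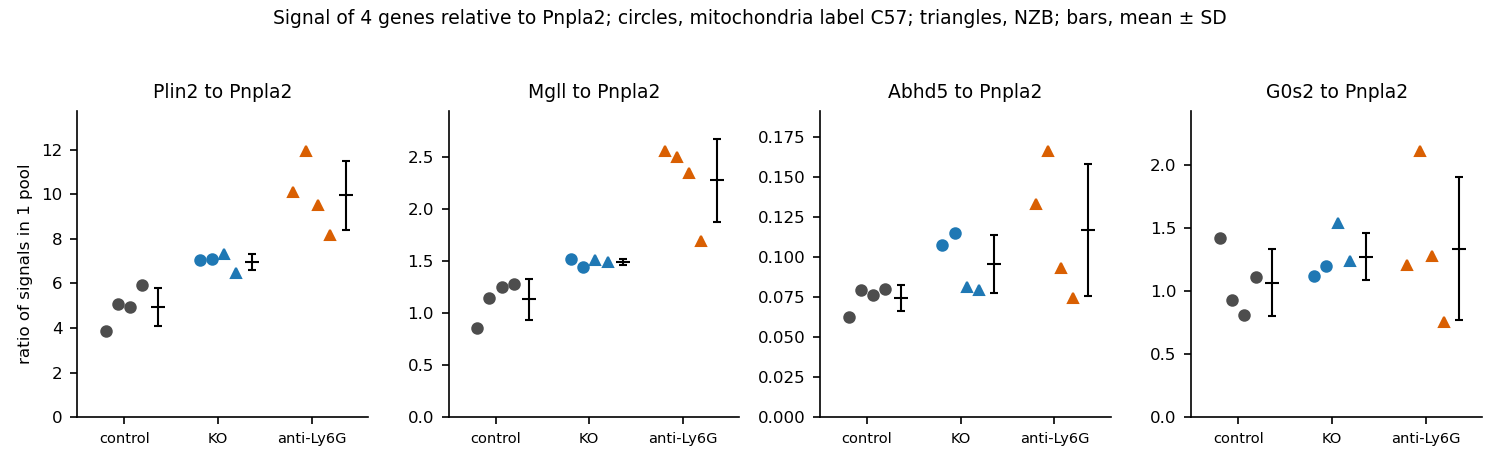
Ratio of the RPM of Plin2, Mgll, Abhd5 and G0s2 to that of Pnpla2 in each pool (y axes from 0), by group; circles are C57, triangles NZB and bars mean ± SD over 4 pools. The 3 groups do not overlap for Plin2 and Mgll. Plin2 to Pnpla2 lay between 3.86 and 5.92 in control and 8.18 and 11.9 with anti-Ly6G. Plin2, Mgll and Pnpla2 each already had their anti-Ly6G and control pools apart.

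Across the 12 pools, Plin2, Cidec and Mgll ran together. Pearson's r was 0.87 for Plin2 and Cidec (Spearman 0.89), 0.90 for Plin2 and Mgll (0.88) and 0.85 for Cidec and Mgll (0.83). With group means removed these were 0.88, 0.74 and 0.82. Without the 2 pools farthest from the median of the first gene they were 0.85, 0.85 and 0.73. Plin2 and Plin3, which both rose, had 0.69 over the pools but 0.14 within groups. Other pairs were also strong within groups, with -0.86 for Pnpla2 and Abhd5 and 0.76 for Plin3 and Plin4. Values within groups keep the split by label in KO, where both NZB pools were above both C57 pools for Plin2, Cidec and Mgll. The pools share library and mitochondrial label, and these values are given as descriptions without a p.

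**Figure D4:**
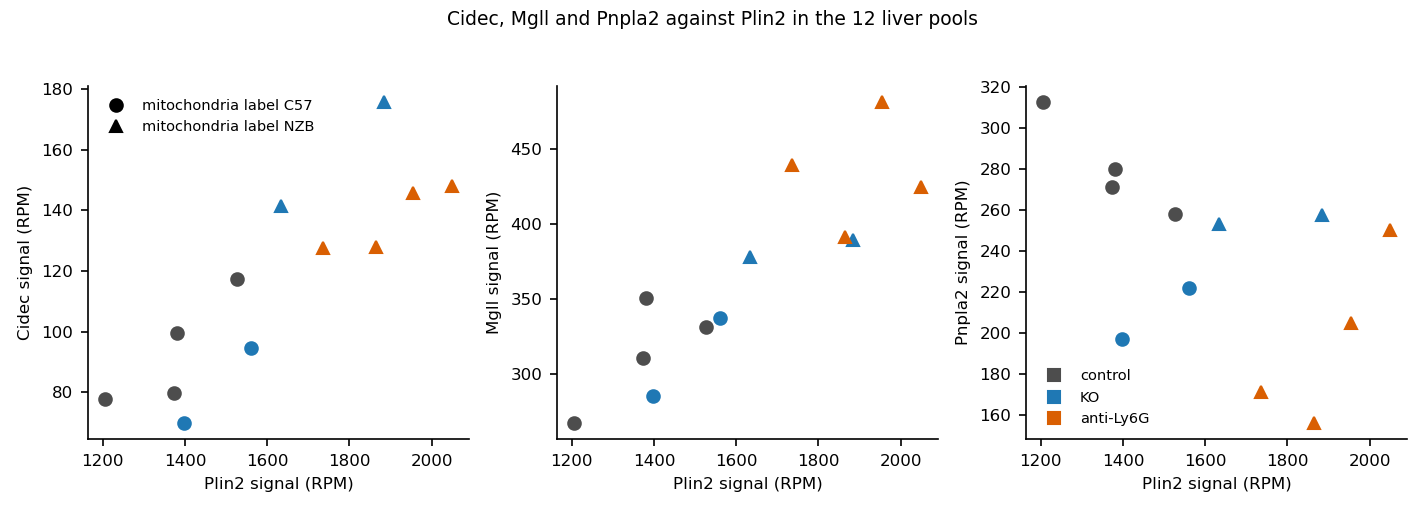
Cidec, Mgll and Pnpla2 (y axes) against Plin2 (x axis), in RPM, for each of the 12 pools; colours are groups, circles C57 and triangles NZB, and the axes do not start at 0. The 6 NZB pools lie above the 6 C57 pools in Cidec and Mgll, with Pearson's r of 0.87 and 0.90 over the 12 pools.

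Over all genes, those most like Plin2 across the 12 pools were Yeats2 (r = 0.93) and Dnajc11 (0.93). For Plin3 they were Mmp15 (0.95) and 2810006K23Rik (0.94), for Pnpla2 Atg2a (0.95) and Fbxw5 (0.94), and for Mgll Dynll1 (0.94) and 1190005F20Rik (0.94). Atg2a encodes a lipid transfer protein of autophagosomes that also sits on droplets. Each is the highest r found over the whole table, and no p was attached to it.

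Other genes of droplet metabolism were read from lists, whose counts for anti-Ly6G stand beside the 30.4% called over all genes (15.1% higher and 15.3% lower). Nothing particular to a list is read from its count. Of 18 measured genes of the droplet surface and its formation, 4 rose and 1 fell with anti-Ly6G. Ldah, a droplet-bound hydrolase, rose by 0.42 (adjusted p = 0.000624), Rab18, a droplet GTPase, by 0.29 (adjusted p = 0.0105), and Faf2, which helps to extract proteins from membranes, by 0.24 (adjusted p = 0.0187). Hsd17b11, a droplet dehydrogenase, fell by 0.45 (adjusted p = 0.000907). Of 21 other lipid hydrolases, 5 rose and 4 fell. Lpl, the lipase of circulating lipoproteins, had the lowest p and fell by 1.60, from 122 ± 45.0 to 38.5 ± 8.57 RPM (adjusted p = 0.000266). Ces1d, a carboxylesterase that mobilises triglyceride for VLDL, fell by 0.71 (adjusted p = 0.00536) and Abhd12 by 0.31 (adjusted p = 0.0116), while Pnpla8 rose by 0.29 (adjusted p = 0.0116).

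Of 13 genes of glycerolipid and cholesteryl ester synthesis, 3 rose and 1 fell with anti-Ly6G. Dgat2, which makes triglyceride, rose by 0.66 from 273 ± 27.3 to 437 ± 86.6 RPM (adjusted p = 0.00482). Agpat1 rose by 0.52 (adjusted p = 0.0135), Gpat3 rose by 0.38 (adjusted p = 0.0247) and Gpat4 fell by 0.51 (adjusted p = 0.00509). Among 14 transcription factors and coactivators of lipid metabolism, 2 rose and 4 fell. Nr1h3, which encodes LXRα, rose by 0.50 (adjusted p = 5.89e-05). Srebf1, the driver of fatty acid synthesis, fell by 1.03 (adjusted p = 0.0109), Ppargc1b by 0.82 (adjusted p = 0.00480) and Ppard by 0.53 (adjusted p = 0.00909). Ppara itself was at 101 ± 11.03 RPM in control and 96.7 ± 12.04 with anti-Ly6G (adjusted p = 0.690).

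Of 17 other PPARα targets, 3 rose and 1 fell with anti-Ly6G. Fgf21, a hepatic hormone, rose by 1.05 (adjusted p = 0.00257), Fabp1, the liver fatty acid binding protein, by 0.61 (adjusted p = 0.00392) and Vnn1, a pantetheinase, by 0.54 (adjusted p = 0.000655). Cpt1a, which admits fatty acids to mitochondria, fell by 0.30 (adjusted p = 0.0316). In KO against control, 2 genes of these 5 lists were called: Ces1d fell by 0.77, from 460 ± 77.6 to 267 ± 21.7 RPM, and Ppargc1b fell by 0.88 (adjusted p = 0.0415 for each). They were 1 of 21 hydrolases and 1 of 14 transcription factors, and the other lists held none. Over all genes 1.12% were called there, and nothing particular to a list is read from these counts. The hydrolases and the transcription factors each held no call in 11 of 26 alternatives. Between KO and anti-Ly6G, 26.8% of all genes were called (13.6% higher and 13.1% lower). The droplet surface had 1 higher and 2 lower of 18, the hydrolases 2 and 6 of 21, and synthesis 1 and 5 of 13. The transcription factors had 1 and 3 of 14 and the PPARα targets 0 and 2 of 17. Lpl was higher in KO, with a change of 2.15 (adjusted p = 3.85e-05), as was Soat1, of cholesteryl ester synthesis, with 1.14 (adjusted p = 0.00546). Dgat2 was lower in KO, with -0.61 (adjusted p = 0.00852). With the mitochondria label as a covariate, 8.25% of all genes were called for anti-Ly6G against control. The droplet surface then had 2 of 18 called, both lower, and the hydrolases 0 of 21. Synthesis had 1 higher and 1 lower of 13. The transcription factors had 2 higher and 0 lower of 14, so the falls of Srebf1, Ppargc1b and Ppard were not called, and the PPARα targets had 1 higher and 2 lower of 17.

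**Figure D5:**
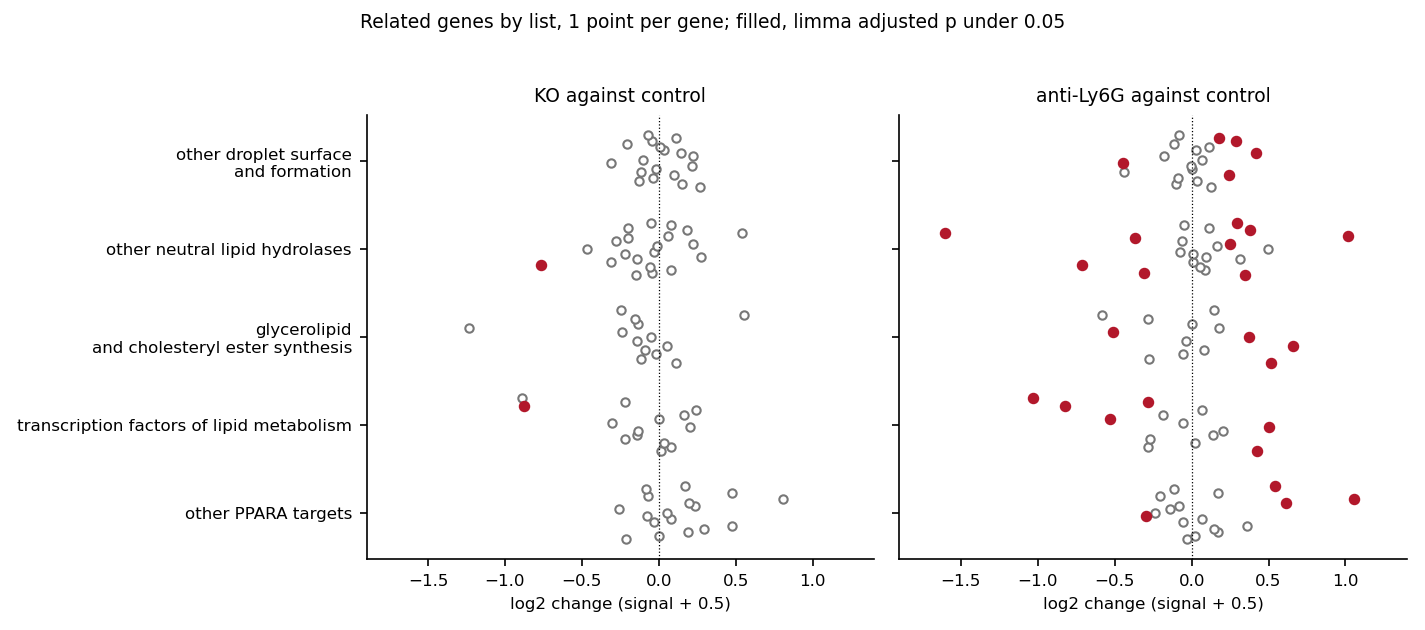
Log2 change of RPM + 0.5 (x axis) for the measured genes of 5 related lists (y axis), 1 point per gene, in KO and in anti-Ly6G against control; filled points have a limma adjusted p under 0.05. In KO 2 points are filled, Ces1d and Ppargc1b, while with anti-Ly6G filled points lie on both sides of 0, from Lpl at -1.60 to Fgf21 at 1.05.

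Markers of other cell types moved beside these genes. Summed macrophage markers (12 of 12 measured) were 688 to 1261 RPM in control, 999 to 1261 in KO and 407 to 608 with anti-Ly6G. Stellate cell markers (9 of 9) were 212 to 316, 296 to 370 and 156 to 179 RPM. Neutrophil markers (4 of 11 measured) were 12.5 to 21.4, 17.4 to 20.9 and 6.30 to 10.7 RPM. Lpl, which macrophages also express, moved in the same direction as the macrophage sums. In bulk liver, fewer cells of a type and less RNA per cell cannot be told apart. Macrophages and adipocytes express Plin2 and Pnpla2 too, and their part in the results was not tested. Of 9 adipocyte markers 3 were measured (Fabp4, Lipe and Adrb3), and they summed to 34.2 to 44.5, 35.2 to 40.4 and 24.2 to 28.9 RPM. Adipoq, Plin1 and Ly6g were not among the measured genes. With anti-Ly6G, 7 of 12 macrophage, 5 of 9 stellate cell, 3 of 4 neutrophil and 2 of 3 adipocyte markers were called lower. Over all genes 15.3% were called lower. None of these markers was called higher, although the changes of 2 macrophage and 2 stellate cell markers were positive. Calls of these markers with the mitochondria label as a covariate were not counted. In KO against control none of these markers was called.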

How the data were processed

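Liver RNA from 12 pools was sequenced with an Illumina Genome Analyzer IIx. For each gene the authors deposited a normalized signal. The submitters' processing notes name GRCm38, edgeR, Bowtie2 2.0.6, RSEM 1.2.3 and cutadapt 1.2.1 without roles. Strand use and the annotation were not given in the sources used here. In the 12 columns, 100% of values were whole multiples of 1 read within 0.01 (a stricter test of low values passed in 4 columns). The signal sums to 0.922 to 1.06 M, and it equals TMM-scaled reads, recomputed here with a ratio of 1 in every column. Recovered depth ran from 14.4 to 19.9 M reads (control), 18.8 to 22.3 M (KO) and 13.1 to 21.0 M (anti-Ly6G).

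Group was the only term in a limma-trend fit (limma 3.58.1, R 4.3.3) on log2(signal + 0.5), over 12 pools and 11791 genes, with Benjamini-Hochberg adjustment. A minimum group mean of 1 removed 0 genes. Alternatives were other pseudocounts, scalings and filters, library weights, a replicate block, the mitochondria label, leaving out each pool, edgeR 4.0.16 and DESeq2 1.42.0 on the recovered reads. The fitting script was tested on simulated data, with the same spread set for every gene. For KO against control it recovered 97% of true log2 changes of 1 and 42% of those of 0.5. Changes of the smaller size can thus go uncalled.

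Coordinates and exon lengths came from GENCODE vM21 (GRCm38). RefSeq promoter windows matched 10 of 10 genes. Where a gene had 2 windows (Plin5, Cidec and Mgll), only the one nearest the GENCODE start was used. The RefSeq start of Plin3 lay well inside the GENCODE gene, and that of Pnpla2 just before the GENCODE start. The genes and lists were chosen with earlier results of these data known. All 10 genes are described. For each of the 10 genes called at least once, the 2 genes of highest r are named. Of each related list up to 4 called genes of lowest p are named against control, and between KO and anti-Ly6G only Lpl, Soat1 and Dgat2. Ppara is named beyond this rule and was chosen after its values were seen, as were the ratios and the comparison of the C57 with the NZB pools within KO. Protein sequences were not used here.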

Additional observations from a re-analysis of the deposited data

Results flagged for a closer look

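Within 30 groups of 4 pools, 1 for each gene and group, 2 held a pool far from the other 3, and chance alone gives about 1 in 20. Plin3 in control pool 4 stood at 44.6 RPM, beside 33.3 to 35.0 RPM in the other control pools. Cideb in KO pool 1 stood at 297 RPM, beside 269 to 273 RPM in the other KO pools. The cause of these values was not tested.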

How the results depend on the processing

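Of 770 recomputed changes of the 10 genes, 714 kept direction and side of the threshold, 13 lost a call, 14 gained one and 29 turned direction. For anti-Ly6G against control, Plin3 and Pnpla2 were called in 25 of 25 alternatives, and Plin2 and Mgll in 24, each lost with the mitochondria label as a covariate. Under that covariate 2 of the 10 genes and 973 genes in all were called, in place of 4 and 3580. Leaving out 1 pool gave 4 to 5 of the 10 and 2791 to 3646 genes. For KO against control, 1 of the 10 was called, Plin3, with library weights (adjusted p = 0.0270) and with DESeq2, and leaving out 1 pool gave 0 to 1. All genes called there numbered 132. They were 208 with quantile normalization, 20 with the replicate block, 79 with the label covariate, 803 with library weights, 577 with DESeq2, and 3 (without control pool 2) to 319 (without control pool 4) with 1 pool left out. For KO against anti-Ly6G, 0 of the 10 were called with quantile normalization or with only these 2 groups fitted, and 0 to 2 with 1 pool left out. Pools of the same label gave 1554 genes in all there, in place of 3157, and leaving out 1 pool 2367 to 3266. The cause was not tested.

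No value that turned direction was called. In KO against control, Plin5 turned to -0.0086 with equal medians and Plin5, Cidec and Mgll to -0.1225, -0.1826 and -0.0162 with the label covariate and, equally, within one label. G0s2 turned to 0.0563 with quantile normalization and 0.1464 with weights. With 1 pool left out, Plin5 ranged from -0.0613 to 0.0715 and G0s2 from -0.1493 to 0.1976. For anti-Ly6G against control, Cidec turned to -0.3851 with the covariate, and leaving out 1 pool gave Plin5 -0.1459 to 0.0241 and Abhd5 -0.0465 to 0.1072. For KO against anti-Ly6G, Cidec turned to 0.2026 and Abhd5 to -0.0614 with the covariate and within one label, and Abhd5 to -0.0609 with weights. Leaving out 1 pool there gave Plin5 -0.0191 to 0.1361, Cideb -0.0132 to 0.0892 and Abhd5 -0.0377 to 0.116.

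Pools with the same number were correlated in their deviations from the group means by 0.011 to 0.129 (KO and control), -0.108 to 0.019 (anti-Ly6G and control) and -0.209 to 0.172 (KO and anti-Ly6G), so the numbers were not taken as pairs. With KO, anti-Ly6G and KO as the first group, 3, 1 and 1 of 4 pools correlated best with their own number. With the replicate block, Cidec was called for anti-Ly6G against control (0.57, adjusted p = 0.0199), and no gene of the 10 lost a call. The filter removed no gene, so the fit without it was the same. With 4 pools a group, the 95% intervals of Plin4, Cidec and G0s2 are the widest of the 10.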
